A study of Penicillium oxalicum with 6 samples.

Results

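The genes described here are those of Penicillium oxalicum with identifier numbers from POX09340 to POX09375, without POX09352. The rule covers 35 numbers, of which 30 were listed in at least 1 of 6 RNA sequencing libraries, out of 9284 genes listed in all. The stretch was chosen by the read counts themselves, since genes in it were lower in the strain that lacks POX00158. The difference between the strains is therefore a description of genes selected on it, and no p-value is given for any member.

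Penicillium oxalicum is a soil mould that secretes enzymes for the breakdown of plant cell walls. In the series, mycelium of the strain MuPOX00158, which lacks POX00158, was compared with mycelium of the Ku70 strain, a Ku70 mutant, with 3 libraries each. Both were kept for 24 h in liquid medium with 1% Avicel, a microcrystalline cellulose, from about 1 g of mycelium. The submitters call POX00158 a phosphokinase and asked how it affects transcripts of cellulase and xylanase genes. Whether MuPOX00158 also carries the Ku70 mutation, and whether a strain is a single transformant, is not stated in the labels. They also leave unsaid whether libraries of 1 strain are separate cultures, and the spread given below may be technical.

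Protein kinases pass on signals by adding phosphate to other proteins, and some of them act on transcription factors. In filamentous fungi, genes of a shared route, such as a secondary metabolite pathway or the uptake and use of a nutrient, often lie side by side and are transcribed together. Genome projects commonly hand out gene numbers along the assembled sequence, which is why runs of numbers are of interest. Here no positions come with the identifiers, and no source used here pairs any of the members with a product name, so no role is given for them. The members are ordered below by the size and the place of their change.

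POX00158, the deleted gene, had 4 to 9 reads per MuPOX00158 library and 569 to 1067 per Ku70 library. The libraries held 2983815 to 3259601 expected counts, which are estimated reads per gene. Levels are given as CPM, counts per 1000000 reads after TMM scaling, or, between genes, as FPKM, which also corrects for gene length. On a principal component analysis of all tested genes, the second component, with 9.34% of the variance, set Ku70 replicate 1 apart from replicates 2 and 3 of that strain. Results that rest on that library, namely falling genes highest in it, the summed level and calls that changed, are given with and without it. The log2 fold changes below are MuPOX00158 over Ku70 from an edgeR fit of all genes, with a standard error (SE). A gene is called lower or higher where its edgeR adjusted p was below 0.05. In RNA of whole mycelium, fewer cells that use a gene and less RNA of it per cell cannot be told apart, and without gene names the mycelium label could not be checked against markers.

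Of the 30 members, 22 had enough reads to be tested, 13 were called lower and 2 higher, and 7 did not pass. Among all 7757 tested genes, 18.6% were called lower and 18.6% higher. A decrease of 2-fold or more was called in 10 of the 22 tested members, where the share over all tested genes was 12.4%, and one of 8-fold or more in 7, where it was 1.59%. The strain contrast chose the stretch, so nothing is read from these shares. The median log2 fold change was -1.03 over the tested members and 0.00 over all tested genes. In 15 tested members the 3 MuPOX00158 libraries all lay below the 3 Ku70 libraries, and in 2 they all lay above, against 24.2% and 27.5% of all tested genes. Since the test needs reads in at least 1 strain, members that passed only through 1 strain had to differ, at least in some libraries. These include POX09354, POX09357 and POX09360, which passed through Ku70, and POX09367 and POX09368, which passed through MuPOX00158.

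Genes lower by 2-fold or more formed 4 series of neighbouring tested identifiers: POX09341 alone, POX09353 to POX09355, POX09357 to POX09361, and POX09365 alone. Beyond POX09366, which did not pass, POX09367 and POX09368 had almost no read in Ku70 and were called higher in MuPOX00158.

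**Figure D1:**
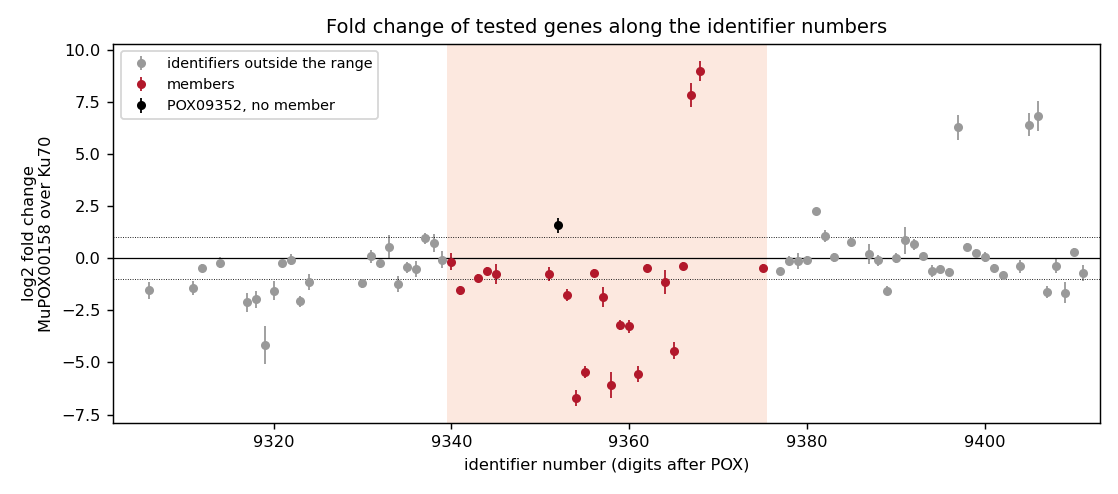
Log2 fold change (MuPOX00158 over Ku70, y axis) of every tested gene by identifier number (x axis), from 36 numbers before to 36 after the range, with bars for the SE. Dotted lines mark 2-fold changes. Shading marks the range of the rule. The members with log2 fold changes from -6.69 to -3.21 lie between POX09354 and POX09365, and the 2 rising members follow at 7.81 and 8.96.

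POX09358 was the most abundant member and, by mean FPKM, ranked 2 of all 9284 listed genes in Ku70. Its level was 10637, 7302 and 5924 CPM in Ku70 replicates 1, 2 and 3 and 50.8, 204 and 93.5 CPM in MuPOX00158 replicates 1, 2 and 3. The lowest Ku70 library was thus 29.1 times as high as the highest MuPOX00158 library, and the strains did not overlap. Its log2 fold change was -6.10 (SE 0.62), and -6.78 without MuPOX00158 replicate 2, the library with the most residual reads. Leaving out MuPOX00158 replicate 1 gave -5.74, and leaving out Ku70 replicate 1 gave -5.82. Per length, it stood at 12703 ± 4097 FPKM in Ku70 and 194 ± 128 FPKM in MuPOX00158 (SD, n = 3 each), where it ranked 852. Its implied effective length, the length that links the deposited count to the deposited FPKM, was 610.3 bases, short against the median of 1135 bases over all listed genes.

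POX09365 was the second most abundant member. It was at 5274, 3168 and 2692 CPM in the Ku70 libraries and at 137, 246 and 132 CPM in the MuPOX00158 libraries. The libraries of the strains were 10.9-fold apart at their closest. Its log2 fold change was -4.43 (SE 0.42), and with 2347 ± 934 FPKM (SD, n = 3) it ranked 43 in Ku70.

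POX09361 and POX09355 had levels close to each other in Ku70. POX09361 was at 1414, 983 and 873 CPM in Ku70 and at 20.6, 33.7 and 14.9 CPM in MuPOX00158, a log2 fold change of -5.56 (SE 0.39). POX09355 was at 1288, 829 and 957 CPM in Ku70 and at 19.7, 29.4 and 20.8 CPM in MuPOX00158, a log2 fold change of -5.46 (SE 0.29). Neither gene had overlapping strains, with gaps of 25.9-fold and 28.2-fold between the closest libraries. Per length they differed, at 1572 ± 447 FPKM for POX09361 and 695 ± 187 FPKM for POX09355 in Ku70 (SD, n = 3 each), with no overlap between the 2 genes.

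POX09354 had the lowest fitted log2 fold change of the members, although it differed from that of POX09358 by less than the SE of POX09358. It was at 173, 93.6 and 134 CPM in the Ku70 libraries and at 0.655, 1.22 and 1.86 CPM in the MuPOX00158 libraries. These last values stand for 2, 4 and 6 reads, so the gene was nearly silent there. Its log2 fold change was -6.69 (SE 0.38), and -5.85 in a limma fit on log2(FPKM + 1), whose pseudocount shrinks changes of genes near 0. In that fit, and without MuPOX00158 replicate 2, POX09358 had the lower value (-6.20 and -6.78, against -5.85 and -6.66).

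POX09359 and POX09360, which are neighbours in number, fell to a like extent from lower levels. POX09359 was at 88.2, 104 and 81.6 CPM in Ku70 and at 8.84, 13.5 and 7.15 CPM in MuPOX00158, a log2 fold change of -3.21 (SE 0.25). POX09360 was at 27.6, 36.9 and 28.3 CPM in Ku70 and at 4.26, 2.14 and 3.11 CPM in MuPOX00158, a log2 fold change of -3.28 (SE 0.29). In both genes every Ku70 library was at least 6.06 times as high as every MuPOX00158 library. POX09360 passed the filter only through Ku70, where it is high, so nothing is read from its call or its gap.

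The smallest decreases of at least 2-fold were those of POX09357, POX09353 and POX09341. POX09357 was at 17.8, 29.7 and 21.9 CPM in Ku70 and at 2.29, 11.3 and 4.97 CPM in MuPOX00158, a log2 fold change of -1.88 (SE 0.48). Its closest libraries were 1.57-fold apart, and its call was lost without Ku70 replicate 2 (log2 fold change -1.68) and without MuPOX00158 replicate 3 (-1.74). Without MuPOX00158 replicate 2, its highest library of that strain, the log2 fold change was -2.64. POX09353 was at 103, 66.9 and 72.1 CPM in Ku70 and at 15.7, 27.2 and 28.0 CPM in MuPOX00158, a log2 fold change of -1.77 (SE 0.27). POX09341, which lies apart from the others in number, was at 152, 93.2 and 144 CPM in Ku70 and at 43.9, 48.7 and 40.7 CPM in MuPOX00158, a log2 fold change of -1.55 (SE 0.21). The strains did not overlap in any of these 3 genes. POX09357 passed the filter only through Ku70, where it is high, so nothing is read from its call or lack of overlap.

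**Figure D2:**
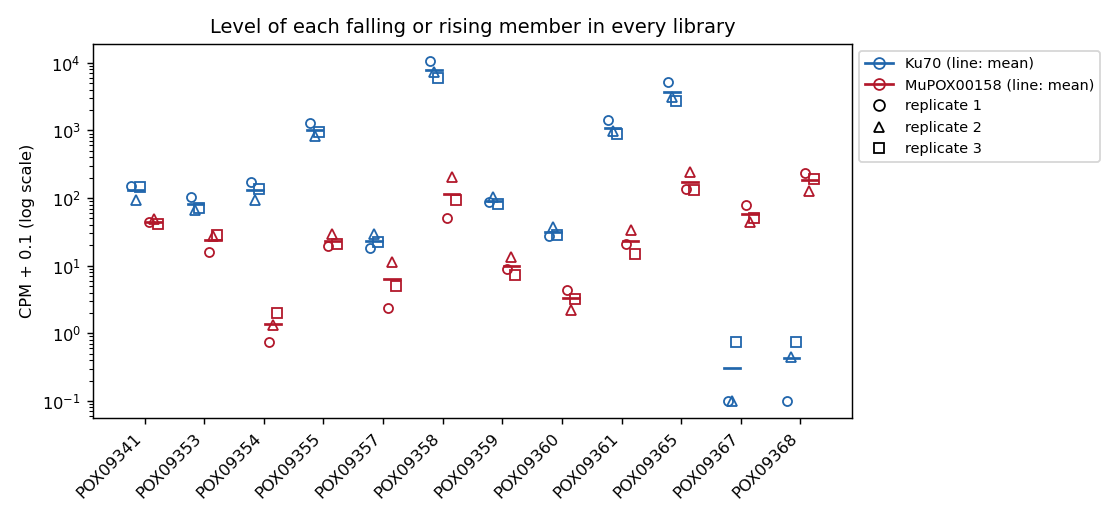
CPM + 0.1 on a log scale (y axis) of the 12 members that changed by 2-fold or more, in each Ku70 (blue) and MuPOX00158 (red) library, with a line at the strain mean and a symbol for the replicate. Ku70 is above MuPOX00158 in all 10 genes from POX09341 to POX09365 and below it in POX09367 and POX09368.

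Only 2 of the tested members rose. Both passed the filter only through MuPOX00158, where they are high, so nothing is read from their calls or lack of overlap. POX09367 had 0, 0 and 2 reads in the Ku70 libraries and was at 79.9, 44.4 and 50.03 CPM in the MuPOX00158 libraries. POX09368 had 0, 1 and 2 reads in Ku70 and was at 231, 125 and 191 CPM in MuPOX00158. With so few reads in Ku70, the fold is imprecise. The ratio of reads summed over 3 libraries, scaled by library size with TMM factors, was 264 for POX09367 and 554 for POX09368. The 95% exact intervals, which cover counting error only, were 72.8 to 2187 and 189 to 2687. The fitted log2 fold changes of 7.81 and 8.96 depend on those few reads. They were 10.49 and 9.77 without Ku70 replicate 3, and 7.30 and 8.42 without Ku70 replicate 1. In limma on log2(FPKM + 1) they were 3.99 and 7.07. An increase of 2-fold or more was called in 10.2% of all tested genes and one of 8-fold or more in 3.58%. In MuPOX00158 both genes were lowest in replicate 2, where the falling genes POX09358 and POX09365 were highest. POX09368 had 2.82 to 3.82 times the reads of POX09367 in the 3 MuPOX00158 libraries. Its implied effective length is shorter, at 1064 against 3664 bases, so that per length the genes lie further apart, at 176 ± 52.5 and 16.3 ± 5.31 FPKM (SD, n = 3 each).

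The genes at the edges of each series had log2 fold changes of smaller size than those inside it. A series ends, by definition, at the nearest tested gene that is not a member lower by 2-fold or more. Smaller decreases at the edges are therefore largely fixed in advance, and the values are given as a description. POX09352, a gene inside the number range but left out by the rule, precedes POX09353 and was higher in MuPOX00158, with a mean of 10.8 CPM (SD 4.08) in Ku70 and of 32.4 CPM (SD 11.98) in MuPOX00158, a log2 fold change of 1.57 (SE 0.36). Between POX09355 and POX09357, each lower by more than 2-fold, POX09356 had the smaller log2 fold change of -0.69 (SE 0.19), with 28.4 ± 2.27 CPM in Ku70 against 17.6 ± 2.49 CPM. Its call was lost without Ku70 replicate 3, MuPOX00158 replicate 1 or MuPOX00158 replicate 3, and in limma on log2(FPKM + 0.1). It had the smallest spread of the tested members in Ku70, an SD of 7.98% of its mean, and both neighbouring series end at it.

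On the upper side, POX09361 is followed by POX09362, which stayed abundant in both strains. POX09362 was at 176, 241 and 212 CPM in Ku70 and at 132, 173 and 154 CPM in MuPOX00158. The strains did not overlap, although the closest libraries were only 1.02-fold apart, and its log2 fold change of -0.45 (SE 0.18) did not pass. It is the tested member with the most reads that did not pass. The next listed identifier, POX09363, had 1 to 11 reads per library and was not tested. POX09364 was weak, at 12.2 ± 8.14 CPM in Ku70 and 5.54 ± 1.67 CPM in MuPOX00158. Its strains overlapped, and the log2 fold change of -1.13 (SE 0.58) did not pass. The abundant POX09365 therefore stands between POX09364 and POX09366, of which the latter had a log2 fold change of -0.36 (SE 0.16) and did not pass either.

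Around POX09341, the nearest tested identifiers above it were also lower, by less than 2-fold, and the one below it was close to even. The log2 fold change of POX09340, the gene below, was -0.16 (SE 0.42), at 95.9 ± 44.0 CPM in Ku70 against 85.6 ± 43.2 CPM (SD, n = 3 each). Its implied effective length of 21865 bases ranked 2 of all listed genes, so that its reads came to only 4.20 ± 1.71 FPKM in Ku70. POX09342 had 10 reads in all in MuPOX00158 and 3 in Ku70 and was not tested. POX09343 was at 61.7 ± 9.34 CPM in Ku70 and fell to 32.3 ± 3.03 CPM, a log2 fold change of -0.93 (SE 0.17). POX09344 was at 66.2 ± 9.75 CPM in Ku70 and fell to 42.8 ± 8.996 CPM, a log2 fold change of -0.63 (SE 0.20). The call of POX09344 was lost in 8 of 14 other fits, 4 of which leave out a library (Ku70 replicate 1 or 3, or MuPOX00158 replicate 1 or 2).

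At the lower end of the rule's range, POX09340 is the first member, and POX09339 just before it had a log2 fold change of -0.07 (SE 0.42). At the upper end, POX09375 is the last member, with a log2 fold change of -0.48 (SE 0.18) that did not pass. It passed with the title letter as a replicate block, with the same log2 fold change of -0.48. The next listed identifier, POX09377, had one of -0.62 (SE 0.15), which passed. The call of POX09377 was lost without MuPOX00158 replicate 3. The last member lower by 2-fold or more was POX09365, well inside the range.

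Of the remaining members, POX09345, POX09351, and 8 genes with too few reads to test complete the account. POX09345, whose implied effective length is 237 bases, was at 60.3, 319 and 195 CPM in Ku70 and at 123, 115 and 103 CPM in MuPOX00158. The Ku70 libraries lay on both sides of the MuPOX00158 libraries, and its log2 fold change of -0.75 (SE 0.49) did not pass. POX09351 did not pass either, and its strains overlapped (log2 fold change -0.77, SE 0.34). The 8 untested members, POX09342, POX09346 to POX09349, POX09363, POX09370 and POX09374, had 1 to 37 reads over all 6 libraries and at most 3.49 CPM in any library. The numbers POX09350, POX09369 and POX09371 to POX09373 were listed in no library.

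Set against each other per length, the falling genes span a wide range of levels. In Ku70 the order by mean FPKM was POX09358, POX09365, POX09361, POX09355, POX09354, POX09341, POX09359, POX09353, POX09360 and POX09357. POX09358 stood clear of the rest, with its lowest library at 9807 FPKM against a highest value of 3423 FPKM for POX09365. POX09365 and POX09361 overlapped across libraries, but within each Ku70 library POX09365 was 1.34 to 1.64 times as high. POX09354 overlapped with POX09341 across libraries but was above it within each Ku70 library. POX09341, POX09359 and POX09353 each overlapped with the next in the order. By mean FPKM in MuPOX00158, POX09358, POX09365 and POX09361 also had the first 3 places, but POX09365 was above POX09358 in replicate 1 and POX09341 above POX09361 in replicate 3. POX09354 went from the fifth place to the last, at 1.32 ± 0.667 FPKM (SD, n = 3).

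**Figure D3:**
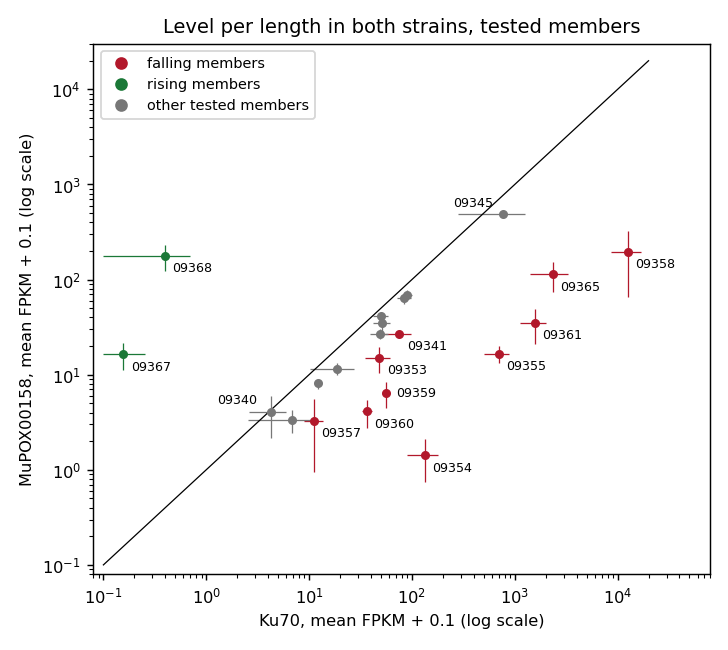
Mean FPKM + 0.1 of the 22 tested members in Ku70 (x axis) and MuPOX00158 (y axis), both on log scales, with bars for the SD (n = 3) and a line of equal level. Bars that would go below 0 stop at 0. Falling members lie below the line, from POX09357 at 11.2 FPKM to POX09358 at 12703 FPKM in Ku70, and the 2 rising members lie at its left.

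A few genes carried nearly all of the reads lost. Together the 30 members held 19786, 13709 and 11739 CPM in the Ku70 libraries and 1146, 1401 and 1098 CPM in the MuPOX00158 libraries. Their share of all reads was 1.47 ± 0.452% for Ku70 and 0.124 ± 0.0139% for MuPOX00158 (SD, n = 3 each), and the summed CPM was 12.4 times as high in Ku70. Without Ku70 replicate 1, the highest library, the ratio was 10.5. POX09358, POX09365, POX09361 and POX09355 made up 97.1% of the summed drop of the 10 falling genes, and POX09358 alone 56.6%. Without POX09358 the remaining 29 members were 6.48 times as high in Ku70. The other 18 members, which were not called lower or higher by 2-fold or more or were not tested, held 807 ± 195 CPM in Ku70 and 552 ± 55.3 CPM in MuPOX00158 (SD, n = 3 each).

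**Figure D4:**
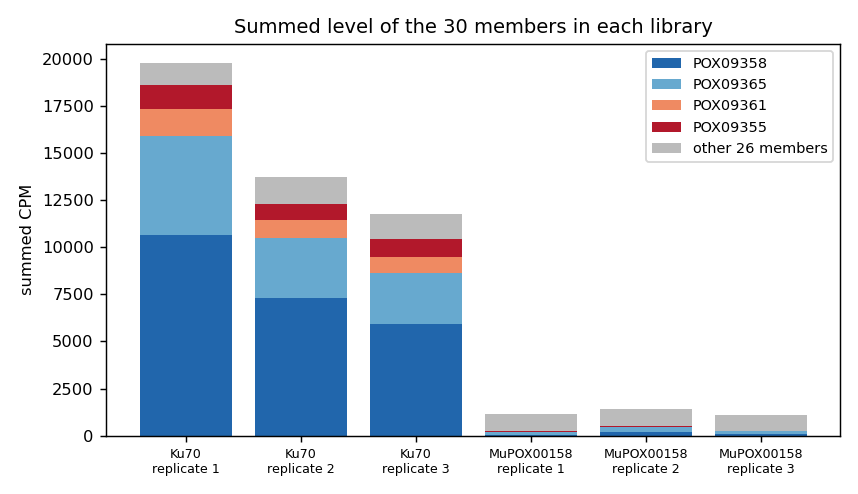
Summed CPM (y axis) of the 30 members in each of the 6 libraries (x axis), split into the 4 members with the most reads and the other 26. The Ku70 bars reach 11739 to 19786 CPM, mostly from POX09358 and POX09365, and the MuPOX00158 bars 1098 to 1401 CPM.

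The same libraries were highest for most of the falling genes. In Ku70, replicate 1 was the highest library for 7 of the 10 falling genes, among them POX09354, POX09355, POX09358, POX09361 and POX09365. It was the highest library for 41.0% of all tested genes. Without replicate 1, the log2 fold change was -5.82 in POX09358, -4.09 in POX09365, -5.32 in POX09361, -5.25 in POX09355 and -6.45 in POX09354. For POX09353 and POX09341, also highest in that library, it was -1.54 and -1.41. Each of these is a smaller change than with all libraries, which follows largely from leaving out the highest Ku70 library of these genes. In MuPOX00158, replicate 2 was the highest for 7 of the 10, against 37.4% of all tested genes. POX09359, POX09360 and POX09357 departed from this in Ku70, with replicate 2 as their highest library. The order of 3 libraries is a coarse measure, and no test was made.

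Within Ku70 the ratio between abundant members changed little. POX09358 had 2.02, 2.30 and 2.20 times the reads of POX09365 in Ku70 replicates 1, 2 and 3, and 7.52, 7.43 and 6.78 times those of POX09361. In MuPOX00158, POX09358 had fewer reads than POX09365 in every library, at 0.372, 0.827 and 0.708 times. There POX09358 had 2.46, 6.05 and 6.27 times the reads of POX09361, a wider spread than in Ku70. POX09365 had 3.73, 3.22 and 3.08 times the reads of POX09361 in Ku70 and 6.62, 7.31 and 8.85 times in MuPOX00158. POX09361 and POX09355 kept a ratio of 0.912 to 1.19 in Ku70 and 0.716 to 1.15 in MuPOX00158.

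Ku70 replicate 1 was the lowest library for 2 of the 10 falling genes. It was so for 6 of the 10 tested members not called lower or higher by 2-fold or more. Over all 7757 tested genes it was the lowest for 2864. Among those 10 tested members, POX09345 and POX09364, chosen after their values were seen, had the widest spread in Ku70. POX09345 was lowest there, at 60.3 CPM against 319 and 195 CPM in the other Ku70 libraries, and POX09364 at 3.24 against 19.1 and 14.3 CPM. Without that library POX09345 had a log2 fold change of -1.17 and POX09364 one of -1.57, and both passed the test. POX09351 (-1.03) and POX09362 (-0.56) also passed without it, while POX09344 lost its call, which made 16 members called lower in place of 13.

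**Figure D5:**
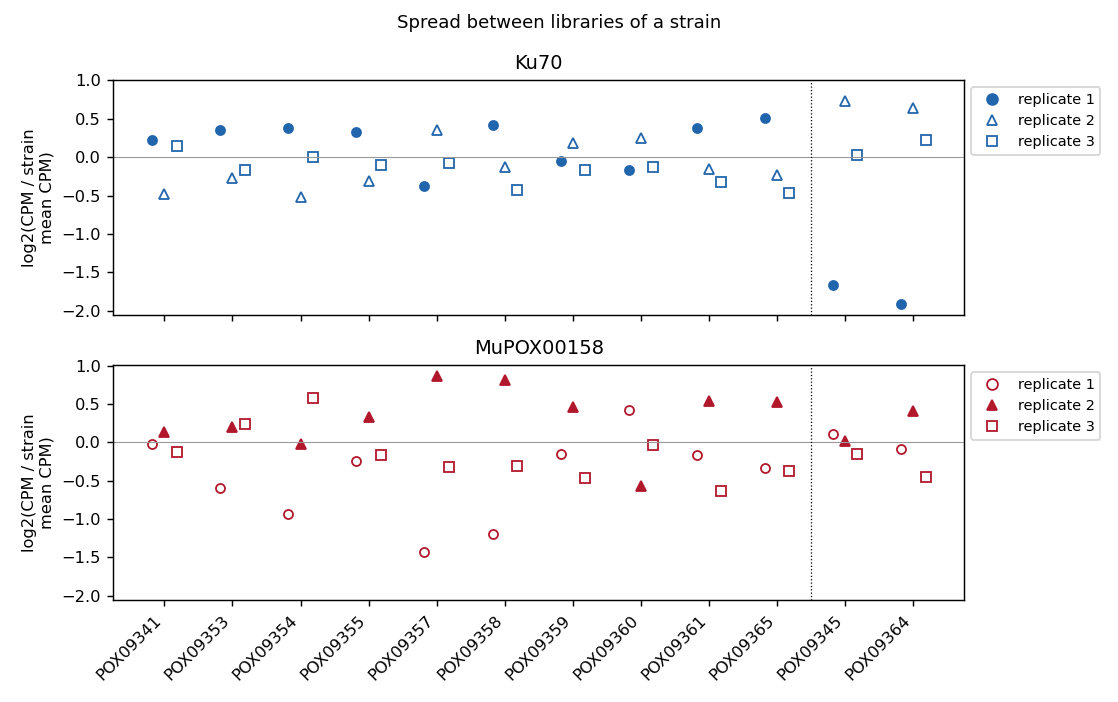
Log2 of the CPM in each library over the mean CPM of its strain (y axis) for the 10 falling members and for POX09345 and POX09364 (x axis, right of the dotted line). Symbols mark the replicates. Filled symbols show Ku70 replicate 1 above the strain mean in 7 of the 10 falling genes and far below it in POX09345 and POX09364, and MuPOX00158 replicate 2 above its strain mean in most falling genes.

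The identifiers on either side of the range had sums closer to even between the strains. By genes, the lower side was nearer the members. From POX09304 to POX09339, 40.9% of tested genes were called lower by 2-fold or more, against 45.5% of tested members and 12.4% of all. The median log2 fold change there was -0.48. Of the 22 tested genes from POX09304 to POX09339, 9 were called lower by 2-fold or more and 1 by 8-fold or more, and the sums were 2122 ± 544 CPM in Ku70 and 1776 ± 288 CPM in MuPOX00158 (SD, n = 3 each). Of the 32 tested genes from POX09376 to POX09411, 3 were called lower and 5 higher by 2-fold or more, and the sums were 1799.8 ± 193 and 1787 ± 70.0 CPM. Among other falling stretches chosen in the same way, 6 of 26 tested genes from POX07605 to POX07635 were lower by 2-fold or more, 5 of them by 8-fold or more, and 13 of 21 from POX03850 to POX03880, none by 8-fold. The summed level was 1852 ± 338 CPM in Ku70 and 1084 ± 20.8 CPM in MuPOX00158 in the first of these, and 1596 ± 39.1 and 693 ± 55.9 CPM in the second. These values stand side by side as a description, and no test of a difference between stretches was made.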

How the data were processed

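The authors deposited, per the file headers, an expected count (estimated reads) and an FPKM value per gene and library. The submitters' processing notes list DESeq2, RSEM 1.2.12, BWA 0.7.10-r789 and Bowtie2 2.1.0 with no roles. They name no genome build, annotation or strandedness. Genes missing from a table were taken as 0. A fractional count, the mark of reads shared with a similar sequence, was found in no member, and in only 32 of all 9284 listed genes.

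Groups follow the strain label, and replicate numbers the order of deposition. Rounded expected counts were fitted with edgeR 4.0.16 in R 4.3.3, with TMM, a quasi-likelihood test and Benjamini-Hochberg over all 7757 tested genes. The filter was filterByExpr with a minimum count of 10 and a minimum total of 15. The same procedure was run on counts simulated under its own model, so that run does not check the model. The SE is the log2 fold change over the square root of F. Libraries of a strain differed by more than sampling noise. The members and lists were chosen with earlier results of these data known. Genes named with every library's value were members called lower or higher by 2-fold or more with a mean of at least 10 CPM in the higher strain. Others named are at the edges of a series or of the range, did not pass despite many reads, or were added after their values were seen (POX09345, POX09351, POX09344). Of these, POX09362 and POX09345 are also given in every library.

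Alternatives were other scalings and filters, DESeq2 1.42.0, limma 3.58.1 on log2(FPKM + 1) and log2(FPKM + 0.1), each library left out and a replicate block. The letters F, S and T in the titles occur in both strains. Deviations from the strain means correlated between libraries of the same letter (r = 0.15, 0.22 and 0.17 across genes, which are not independent). No value for unlike letters is given. The letter was therefore used as the replicate block in that alternative only. The main fit, with its SEs and calls, took no account of it. A RefSeq table of the species was not used: by number, its gene lengths and the implied lengths had a Spearman correlation of 0.01 over 3734 genes, so no names, positions or sequences are given. Counting intervals cover counting error only.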

Additional observations from a re-analysis of the deposited data

How the results depend on the processing

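The 10 members called lower by 2-fold or more were all called so in 12 of 14 other fits, with POX09363 added under DESeq2 and without a filter, and POX09345, POX09351 and POX09364 added without Ku70 replicate 1. Without Ku70 replicate 2 or MuPOX00158 replicate 3, POX09343 took the place of POX09357. The count called lower was 13, and 11 to 16 across these fits, or 10 at an adjusted p below 0.01. The 2 rising members were called in each of these fits, which reuse the same libraries, so this is no separate support. With the letter as a replicate block 14 members were called lower, POX09375 being the addition, and no other call of a member changed. The median log2 fold change of the tested members, -1.03, was -0.75 in limma on log2(FPKM + 1) and -0.80 on log2(FPKM + 0.1), and ran from -1.29 to -0.94 with 1 library left out. The cause of these shifts was not tested. The log2 ratio of the summed CPM, -3.63, ran from -3.80 to -3.38 with 1 library left out and was -2.70 without POX09358, a setting chosen after seeing the data. No called gene reversed its direction in these fits. At this depth, members with 37 reads or fewer over the 6 libraries could not be tested with the filter used.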
